A study of Mus musculus with 6 samples.

Results

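9 genes of costimulatory and checkpoint signalling were followed in mouse bone marrow-derived macrophages (BMDMs) after inhibition of the tRNA-derived fragment 5′tRF-Glu(CTC). All are called ligands below, although Cd40 encodes the macrophage's receptor for CD40L. The genes were picked out of the table by symbol: Cd80, Cd86, Icosl, Cd274, Pdcd1lg2, Cd276, Cd40, Tnfsf9 and Cd83, that is 9 of the 41549 genes in the deposited table. Macrophages were grown with M-CSF from the bone marrow of wild type C57Bl/6N mice and transfected, while still naive, with a locked nucleic acid antisense oligonucleotide against 5′tRF-Glu(CTC) (αGlu) or with a control oligonucleotide (Ctr). Both groups then received IL-4 and IL-13 to polarize them towards the M2 state, so the αGlu and Ctr cells share the cytokines and the transfection and differ in the oligonucleotide. Each group had 3 libraries of stranded mRNA-seq, described as independent experiments, and unpolarized or untransfected cells were not analysed here. All values are transcript levels; none of the proteins was measured in these libraries.

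T cells need a second signal besides the antigen receptor, and the B7 family of surface proteins supplies much of it. CD80 and CD86 engage CD28, which activates, and CTLA-4, which restrains; ICOSL engages ICOS. CD274 (PD-L1) and PDCD1LG2 (PD-L2) engage the inhibitory receptor PD-1, and CD276 (B7-H3) is a relative whose receptor is less well settled. CD40 is the macrophage's receptor for CD40L on helper T cells, TNFSF9 (4-1BBL) is a ligand of the costimulatory receptor 4-1BB, and CD83 marks maturing antigen-presenting cells and stabilizes surface MHC class II and CD86. In macrophages, interferon and NF-κB signals are known to induce CD274, CD86 and CD40, whereas PDCD1LG2 is a classical IL-4 and STAT6 target.

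The oligonucleotide that sets the 2 groups apart, and the fragment it was designed against, are shown because every comparison below rests on them. Both are written 5′ to 3′, as DNA letters, from the list of oligonucleotides supplied with the study; capitals in the target mark bases 2 to 21, to which the 20-base oligonucleotide is the exact reverse complement.
αGlu oligonucleotide: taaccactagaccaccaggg
5′tRF-Glu(CTC) target: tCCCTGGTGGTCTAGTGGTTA
The longest run of the target present in any GENCODE M21 transcript of the members was 9 bases, in Cd40 and in Cd276, and 16.3% of the 21877 protein-coding genes held a run as long or longer. In Cd86 and Pdcd1lg2 the longest run was 6 bases, in Cd80, Icosl, Cd274 and Tnfsf9 7 bases, and in Cd83 8 bases.

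Library totals ran from 17912831 to 30386653 reads. One library stood apart from its group: over log2 CPM, αGlu 1 correlated at 0.929 with αGlu 2 and with αGlu 3 and at 0.966 to 0.982 with the 3 Ctr libraries, whereas αGlu 2 and αGlu 3 correlated at 0.992 with each other. Results are therefore given with and without αGlu 1. It was left out for its expression, which lay near that of Ctr, so adjusted p without it depend on that choice. They rest on αGlu 2 and αGlu 3 alone in that group. In edgeR's quasi-likelihood test, 49.3% of all genes tested had an unadjusted p under 0.05 without αGlu 1, against 24.7% with all 6 libraries. All 9 macrophage markers (among them Adgre1, Csf1r and Cd68) were above a mean of 1 CPM, and their sum ran from 12208 to 13739 CPM in Ctr and from 13012 to 19460 CPM in αGlu. Its largest term was Lyz2, at 5694 to 7229 CPM in Ctr and 6512, 9189 and 11066 CPM in αGlu. In αGlu 2 and αGlu 3, Cd68 and Mertk lay below every Ctr library and the other markers above. Cd68 stood at 1809 to 2063 CPM in Ctr and, in αGlu, at 1990, 1237 and 1144 CPM. Of 10 genes known to respond to IL-4 and IL-13, 9 were above a mean of 1 CPM over the 6 libraries, the exception being Ccl17. Ccl24 passed this limit only through αGlu 2 and αGlu 3, at 9.07 and 16.2 CPM, and had a Ctr mean of 0.497 CPM. The 10 genes did not move as a block: Retnla stood at 540, 245 and 289 CPM in Ctr and, in αGlu, at 101, 0.0315 and 0.0367 CPM, the last pair being 1 read each, whereas Arg1 stood at 24.3, 45.2 and 41.5 CPM in Ctr against 23.5, 1886 and 1792 CPM in αGlu. For other antigen-presenting cells, 1 of 10 dendritic cell markers was above 1 CPM (Batf3), the list summing to between 20.99 and 25.2 CPM in Ctr and between 6.93 and 16.5 CPM in αGlu with Xcr1 at 0, and none of 7 B cell markers was, with sums between 0.464 and 0.818 CPM in Ctr and between 0.574 and 0.787 CPM in αGlu and with Cr2 and Fcer2a at 0. In the T and NK cell list only Il7r of 9 passed 1 CPM and Cd3g was at 0. The sum of this list, almost all of it Il7r, ran from 599 to 833 CPM in Ctr and from 258 to 682 CPM in αGlu. Il7r was lower in αGlu 2 and αGlu 3, at 401 and 257 CPM, than in any Ctr library. Lck was higher there, at 1.35 and 1.03 CPM against 0.318 to 0.376 CPM in Ctr, and stood at 0.0574 CPM in αGlu 1. The neutrophil list held 3 of 9 genes above 1 CPM (Csf3r, Mpo and S100a8) with Ly6g at 0. Its sum, almost all of it Csf3r, moved with the groups, from between 107 and 160 CPM in Ctr to between 186 and 609 CPM in αGlu. The list did not move as a block. S100a9 and Ngp lay below every Ctr library in αGlu, and Mpo did so in αGlu 2 and αGlu 3, at 0.0944 and 0.0367 CPM. S100a8 rose in αGlu 2 and αGlu 3, to 2.11 and 1.32 CPM, from a Ctr mean of 0.724 CPM. None of 6 fibroblast markers and 1 of 6 mast cell and basophil markers (Prss34) was above 1 CPM. The fibroblast list summed to 7.95 CPM in Ctr 1 and to between 2.01 and 3.15 CPM in the other libraries. The mast cell and basophil list summed to 10.3 CPM in αGlu 1 and to between 1.80 and 5.06 CPM in the other libraries. The part of these lists in the results below was not tested. In bulk RNA, more cells that carry a transcript and more transcript per cell cannot be told apart.

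Between genes, levels were compared in TPM (transcripts scaled to a common total), the authors' unit that accounts for transcript length. Cd274 was the most abundant member in both groups, at 481 ± 119 TPM in Ctr and 1037 ± 180 TPM in αGlu (SD, n = 3), and it made up 62.5 to 72.8% of the members' summed TPM in the Ctr libraries and 73.3 to 80.7% in the αGlu libraries. Pdcd1lg2, at 110 ± 13.4 and 130 ± 29.6 TPM, and Cd83, at 81.9 ± 16.2 and 68.9 ± 3.96 TPM, came next, and their libraries did not overlap with each other in either group. In Ctr, the following 4 places went to Cd86 (7.76 ± 4.68 TPM), Cd40 (6.34 ± 2.38 TPM), Cd80 (4.62 ± 1.99 TPM) and Cd276 (3.11 ± 1.03 TPM), and the ranges of neighbours among these overlapped. Inside each library, Cd40 was above Cd80 in all 3 Ctr libraries. Cd86 was above Cd40 in 2 of them, and Cd80 above Cd276 in 2. Tnfsf9, at 1.38 ± 0.176 TPM, and Icosl, at 0.148 ± 0.0932 TPM, were lowest, each apart from its neighbour. In αGlu, Cd86 stood at 42.9 ± 20.8 TPM, Cd40 at 21.4 ± 10.7 TPM, Tnfsf9 at 14.1 ± 11.3 TPM and Cd80 at 11.9 ± 5.60 TPM, again with overlapping ranges from each to the next. Inside each library, Cd86 was above Cd40 and Cd40 above Tnfsf9 in all 3 αGlu libraries, and Tnfsf9 above Cd80 in 2. Below them, Cd276 stood at 1.83 ± 1.14 TPM and Icosl at 0.358 ± 0.0806 TPM, each without overlap with its neighbour. Tnfsf9 thus passed from rank 8 in Ctr to rank 6 in αGlu by its mean, but in αGlu 1 it was at 1.38 TPM, within the Ctr range of 1.18 to 1.52 TPM.

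**Figure D1:**
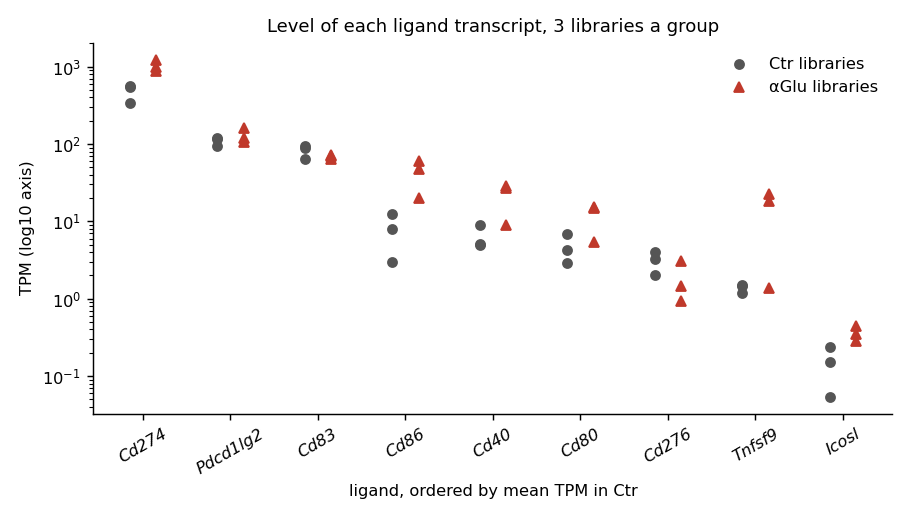
Level of each ligand transcript in TPM on a log10 axis, one point per library, with Ctr as circles and αGlu as triangles, ordered by the mean in Ctr. Cd274 lies above all other members in every library, from 344 to 1236 TPM, and Icosl below them, from 0.0539 to 0.444 TPM.

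The costimulatory B7 ligands had higher means in the αGlu cells, most of all Cd86, and none passed edgeR's quasi-likelihood test with all 6 libraries. Within a gene, libraries were compared in CPM, read counts scaled to a common library total and by TMM factors. Cd86 (ENSMUSG00000022901, GRCm38 chromosome 16, 36603869 to 36666081, minus strand) stood at 3.50, 9.91 and 15.03 CPM in Ctr 1, 2 and 3 and at 23.6, 54.8 and 67.6 CPM in αGlu 1, 2 and 3. Every αGlu library lay above every Ctr library, and αGlu 1 was the lowest of its group. The log2 fold change was 2.36 ± 0.61 (SE), a 5.14-fold ratio of mean CPM, with an adjusted p of 0.156 in edgeR's quasi-likelihood test with Benjamini-Hochberg adjustment over all genes tested. Without αGlu 1 it was 2.69 ± 0.47 with an adjusted p of 0.00564 in the same edgeR test, and Cd86 then passed the limits used here, an adjusted p under 0.1 together with a log2 fold change beyond 1 in either direction. Ctr 1 was low for this gene; without it the log2 fold change was 1.98 ± 0.52 with an adjusted p of 0.351 (edgeR).

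Cd80 (ENSMUSG00000075122, chromosome 16, 38455561 to 38496335, plus strand), the other ligand of CD28, stood at 3.45, 5.22 and 8.40 CPM in Ctr and, in αGlu, at 6.54, 17.0 and 17.5 CPM. Here the groups overlapped, since αGlu 1 lay between Ctr 2 and Ctr 3, while αGlu 2 and αGlu 3 were above every Ctr library. The log2 fold change was 1.27 ± 0.48 (SE) with an adjusted p of 0.185 in the edgeR quasi-likelihood test, and 1.60 ± 0.31 with an adjusted p of 0.00877 without αGlu 1.

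Icosl (ENSMUSG00000000732, chromosome 10, 78069302 to 78083913, plus strand), the ligand of ICOS, was sparsely counted, with 5, 2 and 8 reads in Ctr and 9, 13 and 17 reads in αGlu. In CPM these were 0.227, 0.0836 and 0.371 against 0.516, 0.409 and 0.624, so that the groups did not overlap. The log2 fold change of 1.18 ± 0.54 (SE) had an adjusted p of 0.232 in edgeR, and 0.162 without αGlu 1; without Ctr 2 the log2 fold change was 0.77. The pooled CPM ratio was 2.29, and its 95% interval, which reflects counting error alone, ran from 1.24 to 4.48. Icosl passed the low-count filter through the αGlu group alone: all 3 αGlu libraries and 0 of the 3 Ctr libraries reached the filter's limit of 0.422 CPM on library size, so that its fold change was in part chosen by the filter.

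**Figure D2:**
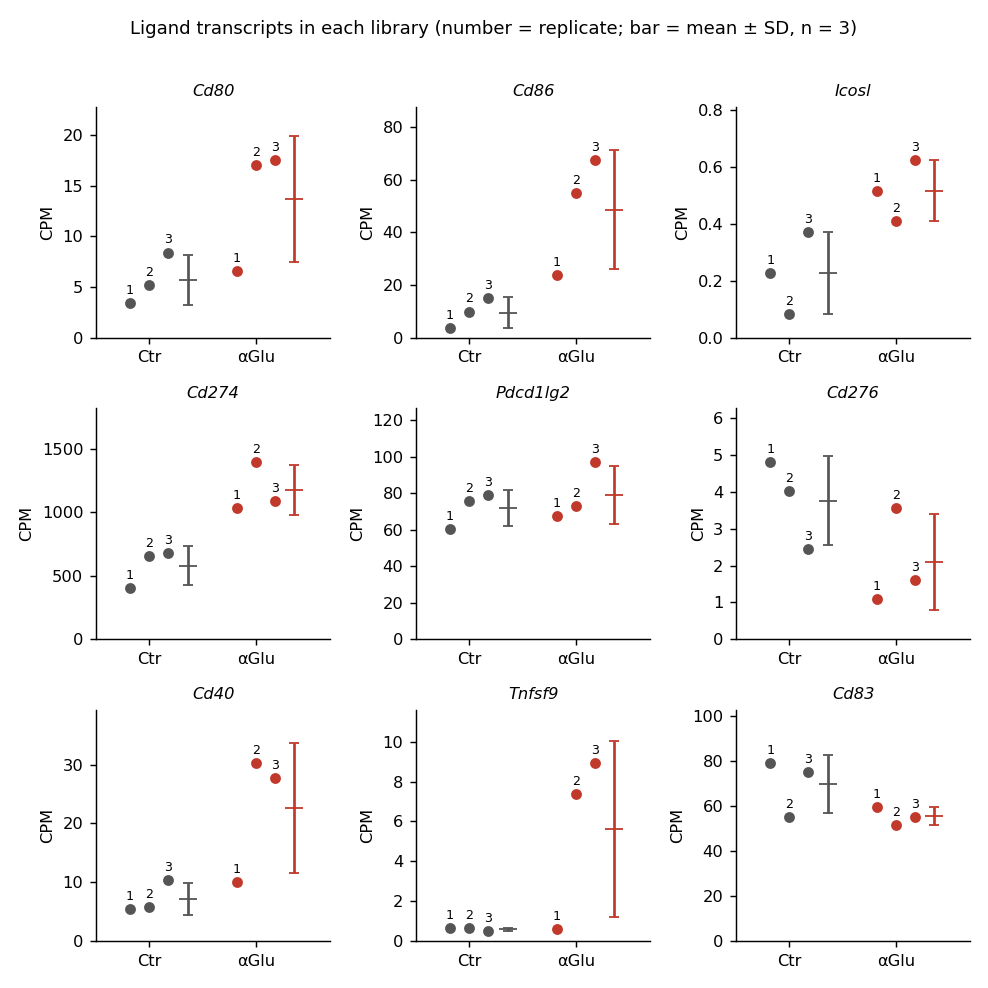
CPM of the 9 ligands in each library, with points numbered by replicate and a bar for the mean ± SD of 3 libraries; every vertical axis starts at 0. The αGlu points of Cd86, Icosl and Cd274 lie above all Ctr points, and for Cd80, Cd40 and Tnfsf9 only αGlu 2 and αGlu 3 do.

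Of the inhibitory B7 ligands, Cd274 lay higher in αGlu while its neighbour Pdcd1lg2 overlapped between the groups. Cd274 (ENSMUSG00000016496, chromosome 19, 29367455 to 29388095, plus strand) stood at 405, 654 and 678 CPM in Ctr against 1033, 1398 and 1090 CPM in αGlu, with no overlap and with αGlu 1 next to αGlu 3. Its log2 fold change was 1.02 ± 0.25 (SE), a 2.03-fold ratio of mean CPM, with an adjusted p of 0.156 in edgeR's quasi-likelihood test. Without αGlu 1 it was 1.10 ± 0.24 with an adjusted p of 0.0127 (edgeR), and without Ctr 1, the lowest library, 0.83 ± 0.20 with an adjusted p of 0.351 (edgeR), which is under the fold limit.

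Pdcd1lg2 (ENSMUSG00000016498, chromosome 19, 29410919 to 29471161, plus strand), whose start lies 22823 bases past the end of Cd274, stood at 60.6, 75.6 and 79.2 CPM in Ctr and, in αGlu, at 67.3, 73.0 and 97.2 CPM. Of the 3 αGlu libraries, αGlu 1 and αGlu 2 lay inside the Ctr range and αGlu 3 above it. The log2 fold change was 0.14 ± 0.17 (SE) with an adjusted p of 0.614 in edgeR, and it changed sign, to -0.03, without αGlu 3.

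To set this pair of neighbours side by side, the 250 bases before the start of each are shown, with those of Cd80 for contrast. Sequences and starts are from RefSeq (GRCm38.p6), in which 5 of the 9 members were matched (Cd80, Icosl, Cd274, Pdcd1lg2 and Cd276); the RefSeq starts of Cd80, Icosl and Cd276 lie inside the GENCODE gene spans given with each gene. Capitals mark matches, on either strand, to 4 motifs: the STAT motif TTCNNNGAA, its longer form TTCNNNNGAA that STAT6 is known to prefer, the interferon response motif TTTCNNTTTC, and the NF-κB motif. In the 32536 distinct windows of the same length these were present in 7.04%, 5.89%, 2.98% and 7.28%, respectively.
Cd274, chr19:29367188-29367437, plus strand: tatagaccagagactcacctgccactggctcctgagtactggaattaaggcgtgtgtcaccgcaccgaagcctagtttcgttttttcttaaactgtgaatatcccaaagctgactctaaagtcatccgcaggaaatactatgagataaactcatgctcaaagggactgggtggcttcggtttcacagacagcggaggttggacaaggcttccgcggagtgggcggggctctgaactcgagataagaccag
Pdcd1lg2, chr19:29410669-29410918, plus strand: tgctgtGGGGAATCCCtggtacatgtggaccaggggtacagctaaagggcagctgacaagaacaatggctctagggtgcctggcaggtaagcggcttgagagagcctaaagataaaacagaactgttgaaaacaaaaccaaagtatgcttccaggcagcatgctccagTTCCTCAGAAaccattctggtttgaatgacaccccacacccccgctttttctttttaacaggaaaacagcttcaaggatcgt
Cd80, chr16:38458683-38458932, plus strand: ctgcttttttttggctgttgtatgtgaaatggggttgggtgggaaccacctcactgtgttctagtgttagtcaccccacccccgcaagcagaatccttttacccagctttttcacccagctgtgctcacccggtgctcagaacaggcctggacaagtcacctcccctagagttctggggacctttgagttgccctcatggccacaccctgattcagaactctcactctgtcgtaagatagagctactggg
Pdcd1lg2 held the longer STAT form at bases 169 to 178 of the window and the NF-κB motif at bases 7 to 16. Icosl held the NF-κB motif at bases 140 to 149. None of the 4 letter patterns was in the windows of Cd274, Cd80 or Cd276, which says only that these letters are not in those 250 bases.

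Cd276 (ENSMUSG00000035914, chromosome 9, 58524298 to 58555437, minus strand) went the other way by its mean. It stood at 4.82, 4.01 and 2.46 CPM in Ctr against 1.09, 3.56 and 1.61 CPM in αGlu. The groups overlapped through αGlu 2, and the log2 fold change of -0.83 ± 0.49 (SE) had an adjusted p of 0.316 in edgeR. It was -0.54 ± 0.42 with an adjusted p of 0.349 without αGlu 1 (edgeR), and -1.46 without αGlu 2.

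The members of the TNF and TNF receptor families showed the widest gap between αGlu 1 and the other αGlu libraries. Cd40 (ENSMUSG00000017652, chromosome 2, 165055627 to 165072948, plus strand) stood at 5.41, 5.77 and 10.3 CPM in Ctr and, in αGlu, at 9.98, 30.2 and 27.8 CPM. Only αGlu 1 lay inside the Ctr range. Its log2 fold change was 1.66 ± 0.48 (SE) with an adjusted p of 0.159 in edgeR's quasi-likelihood test, and 2.01 ± 0.26 with an adjusted p of 0.00181 without αGlu 1.

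Tnfsf9 (ENSMUSG00000035678, chromosome 17, 57105325 to 57107757, plus strand) had 14, 15 and 11 reads in Ctr and 10, 234 and 243 reads in αGlu, or 0.636, 0.627 and 0.510 CPM against 0.574, 7.37 and 8.91 CPM. The Ctr libraries and αGlu 1 were alike, at 10 to 15 reads each, and αGlu 2 and αGlu 3 were 13.8-fold above the Ctr mean. The log2 fold change over all libraries was 3.25 ± 0.93 (SE) with an adjusted p of 0.159 in edgeR, and 3.76 ± 0.22 with an adjusted p of 7.79e-05 without αGlu 1, the largest of the 9 under both fits.

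Cd83 (ENSMUSG00000015396, chromosome 13, 43784775 to 43803132, plus strand) stood at 79.0, 55.0 and 75.3 CPM in Ctr against 59.8, 51.8 and 54.9 CPM in αGlu. In αGlu, the first library lay inside the Ctr range and the other two just under Ctr 2. The log2 fold change was -0.33 ± 0.15 (SE) with an adjusted p of 0.232 in edgeR. Without αGlu 1 it was -0.39 ± 0.16 with an adjusted p of 0.0991, short of the fold limit.

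All 9 members passed the low-count filter, as did 11933 genes in all. With all 6 libraries 0 of the 9 were called, and the share called among all genes tested was likewise 0.0% in the edgeR quasi-likelihood test, the smallest adjusted p in the whole fit being 0.149. At an unadjusted p under 0.05, 5 members passed (Cd80, Cd86, Cd274, Cd40 and Tnfsf9), against 24.7% of all genes tested. DESeq2 called these 5 higher and 0 lower; among all genes it called 4.21% higher and 3.92% lower. Without αGlu 1, edgeR called the same 5 higher and 0 lower, against 8.05% of all genes called higher and 10.5% called lower. The other 4 members, Icosl, Pdcd1lg2, Cd276 and Cd83, were called in neither. By the levels alone, 3 members lay higher in αGlu without overlap and 0 lower, while 14.2% of all genes tested lay higher without overlap and 15.9% lower. Icosl is one of these 3 and passed the filter through the αGlu group alone; of the other 8 members, 2 lay higher (Cd86 and Cd274) and 0 lower. The median log2 fold change of the 9, 1.18, is that of Icosl itself; it was 1.15 over the other 8 and 0.02 over all genes tested.

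**Figure D3:**
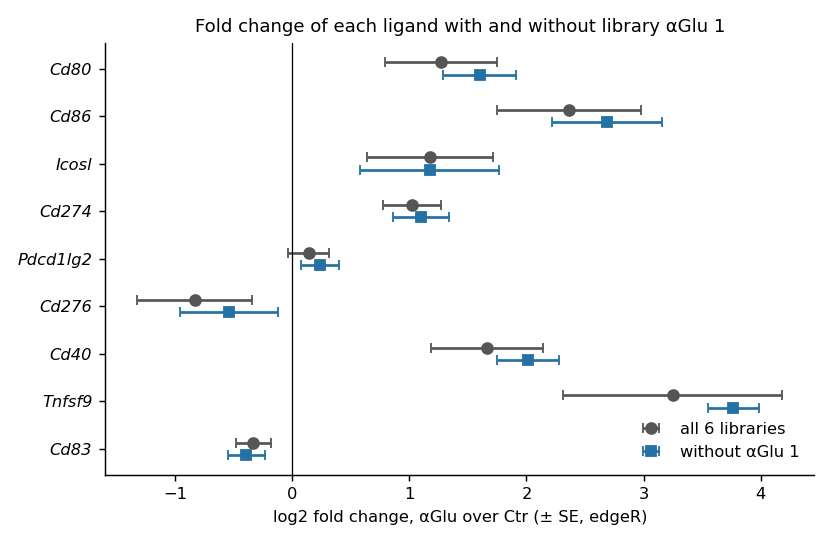
Log2 fold change of αGlu over Ctr for each ligand, with its standard error, from edgeR with all 6 libraries (circles) and without αGlu 1 (squares). Leaving out αGlu 1 moved Tnfsf9 from 3.25 to 3.76 and narrowed its standard error from 0.93 to 0.22; Pdcd1lg2 stayed near 0 in both.

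Ligands that share a receptor were also set against each other inside each library, where no scaling between libraries is needed. The Cd80 to Cd86 ratio of TPM was 0.976, 0.521 and 0.552 in Ctr and 0.274, 0.307 and 0.257 in αGlu. All 3 αGlu libraries, αGlu 1 included, lay below all Ctr libraries. The mean log2 ratio, with a pseudocount of 0.1 TPM, fell by 1.23 on the log2 scale, from -0.60 ± 0.49 to -1.83 ± 0.13 (SD, n = 3), with a two-sided exact permutation p of 0.1, the smallest that 3 against 3 libraries allow; the design cannot reach 0.05. Without αGlu 1 the difference was -1.22, and without Ctr 1, whose ratio was the highest, -0.95.

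The Cd274 to Pdcd1lg2 ratio, both ligands of PD-1, was 3.62, 4.69 and 4.64 in Ctr and 8.31, 10.4 and 6.07 in αGlu. Again the groups did not overlap, and αGlu 1 lay between αGlu 3 and αGlu 2. The mean log2 ratio went from 2.10 ± 0.21 to 3.01 ± 0.39 (SD, n = 3), a difference of 0.91 with a two-sided exact permutation p of 0.1. Over the 2 ratios, both adjusted p were 0.1 in this exact permutation test.

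**Figure D4:**
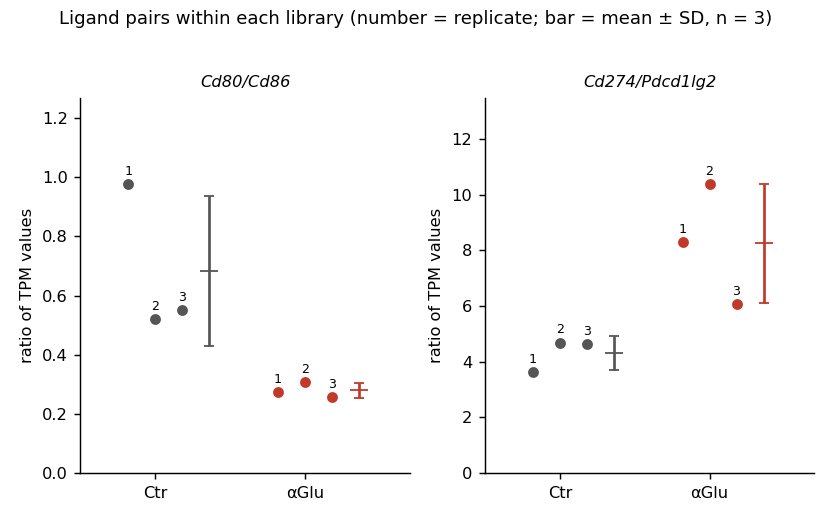
Ratio of TPM values within each library for Cd80 over Cd86 (left) and Cd274 over Pdcd1lg2 (right), with points numbered by replicate, a bar for the mean ± SD of 3 libraries and axes that start at 0. The αGlu libraries lie at or under 0.307 on the left and at or above 6.07 on the right, on the far side of every Ctr library.

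The members did not share one pattern over the 6 libraries. Likeness was measured as the root mean square difference of log2 CPM, each gene centred on its own mean over the 6 libraries. Among the members, Cd80 and Cd40 were the closest pair, at 0.233. Among 8387 genes whose log2 CPM averaged 3 or more, the nearest to Cd80 were Il2rg (0.152), the common cytokine receptor gamma chain, and Ms4a4a (0.189). For Cd86 they were Enpp4 (0.163) and Gbp5 (0.340), an interferon-inducible GTPase, which stood at 5.54, 18.1 and 22.6 CPM in Ctr and 44.6, 80.2 and 62.1 CPM in αGlu. For Cd274 they were Slc25a37 (0.140), a mitochondrial iron carrier, and Parvg (0.166), and for Icosl Rnase4 (0.204) and Gpr162 (0.325). Cd40 was nearest to Jdp2 (0.209) and Apobec3 (0.214). Tnfsf9 was nearest to Ets2 (0.135), a transcription factor, and Sod2 (0.153), the mitochondrial superoxide dismutase, which stood at 52.4 to 66.4 CPM in Ctr and, in αGlu, at 54.7, 744 and 680 CPM. These distances describe 6 libraries of 2 groups, and any gene that differs between the groups to a like degree lies near.

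The other genes of these pathways were read from 6 lists of 105 genes in all, of which 78 passed the filter. None was called with all 6 libraries by edgeR; without αGlu 1, 22 of 83 tested were called higher and 13 lower, against the 8.05% and 10.5% of all genes given above. Genes named below for having been called were chosen after their values were seen. Siglece, Tnfsf14, Tnfsf4, Tnfrsf9 and Cd226 were not tested in edgeR's fit of all 6 libraries. They were tested without αGlu 1 and are among the 22 and 13. There, Siglece, Tnfsf14 and Tnfrsf9 passed the low-count filter through the αGlu group alone, and Tnfsf4 through the Ctr group alone. The calls of these genes were thus in part chosen by the filter. Of 23 further B7, butyrophilin and checkpoint ligands, 14 were tested with all libraries with a median log2 fold change of 0.20, and without αGlu 1 Pvr, Nectin2 and Siglece were called higher and Vsir and Cd24a lower. Pvr and Nectin2 are ligands of the receptors TIGIT and CD226. Pvr stood at 15.3, 21.7 and 19.9 CPM in Ctr against 24.8, 46.4 and 47.0 CPM in αGlu. Vsir, which encodes the inhibitory B7 relative VISTA, stood at 549, 544 and 471 CPM in Ctr and, in αGlu, at 446, 158 and 189 CPM, so that here αGlu 1 too lay below every Ctr library. The 3 most abundant of this list, Lgals3 (galectin-3), Sirpa (the receptor of CD47) and Lilrb4a (an inhibitory immunoglobulin-like receptor), had log2 fold changes of -0.39, -0.12 and 0.22 and were called in neither edgeR fit.

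Of 8 other TNF superfamily ligands, 4 were tested with all libraries, with a median log2 fold change of -0.07. Without αGlu 1, Tnfsf14 and Tnfsf15 were called higher and Tnfsf4 (OX40L) and Tnfsf8 (CD30L) lower. Tnfsf14 (LIGHT) resembled Tnfsf9, at 0.0909, 0.293 and 0.371 CPM in Ctr and 0.287, 3.40 and 5.02 CPM in αGlu, whereas Tnfsf15 (TL1A) was higher in αGlu 1 as well, at 2.73, 4.30 and 3.53 against 6.14, 9.73 and 8.44 CPM. Tnfsf13 (APRIL), the most abundant of the list, had a log2 fold change of -0.35 ± 0.28 (SE). Of 19 adhesion, SLAM and TIM genes, 18 were tested with a median of -0.10, and without αGlu 1 Icam1, Itgal, Slamf1, Slamf6 and Sema4a were called higher and Itgb2, Slamf9, Cd84, Alcam and Cd5l lower. Slamf1 had 5, 11 and 7 reads in Ctr and 3, 2133 and 991 reads in αGlu. Its αGlu 2 and αGlu 3 libraries thus carried it past the low-count filter. Icam1, which holds the T cell through LFA-1, stood at 24.9, 27.7 and 32.2 CPM in Ctr against 32.4, 159 and 174 CPM in αGlu. Itgb2, the beta chain of LFA-1 and of the other leukocyte integrins, stood at 1955, 2005 and 1839 CPM in Ctr and, in αGlu, at 1380, 783 and 664 CPM. Its alpha chain Itgal, at 20.1, 16.7 and 37.9 CPM in Ctr and 17.2, 89.7 and 108 CPM in αGlu, moved in the opposite direction in αGlu 2 and αGlu 3. Ly9, the second most abundant gene of the list, had a log2 fold change of -0.27 and was called in neither edgeR fit.

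The receptors that these ligands meet on T cells were for the most part not detected above a mean of 1 CPM: of 16, only Cd28 and Lag3 were, and 3 were tested. Cd28 stood at 192, 191 and 232 CPM in Ctr against 270, 35.4 and 75.5 CPM in αGlu, highest of all in αGlu 1. Lag3 stood at 0.500, 0.585 and 0.835 CPM in Ctr and, in αGlu, at 2.58, 1.79 and 1.80 CPM, with no overlap; its log2 fold change of 1.67 ± 0.31 (SE) had an adjusted p of 0.149 in edgeR. Tnfrsf4 (OX40), the third by TPM, had a log2 fold change of 0.08 ± 0.32 (SE). Without αGlu 1, Lag3 and Tnfrsf9 (4-1BB, the receptor of Tnfsf9) were called higher and Cd28 and Cd226 lower, Tnfrsf9 from no more than 0.0464 CPM in Ctr to 0.693 and 0.477 CPM in αGlu 2 and αGlu 3.

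All 18 genes of CD40 and TNF receptor signalling were tested, with a median log2 fold change of 0.38, and 7 lay higher and 1 lower without overlap, where 14.2% of all genes tested lay higher and 15.9% lower. Without αGlu 1, Traf1, Birc3, Nfkb2, Relb and Tnfaip3 were called higher and Traf5 lower. Relb and Nfkb2, the subunits of the non-canonical NF-κB dimer that CD40 activates, stood at 13.3 to 15.5 and 28.3 to 39.1 CPM in Ctr. In αGlu, Relb stood at 17.0, 65.5 and 61.1 CPM and Nfkb2 at 32.3, 121 and 121 CPM, so that αGlu 1 lay just above the Ctr range for Relb and inside it for Nfkb2. Birc3, an inhibitor of apoptosis bound to TRAF2, stood at 43.6, 37.9 and 41.5 CPM in Ctr against 41.8, 188 and 203 CPM in αGlu. Rela, the canonical subunit, had a log2 fold change of 0.10 ± 0.11 (SE), and Bcl2a1b, whose near-identical gene copies make its count uncertain, one of 0.35 ± 0.17 (SE).

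Of 21 upstream regulators and turnover factors, all were tested, with a median log2 fold change of 0.15; 6 of the 21 lay higher and 4 lower without overlap, beside the same 14.2% and 15.9% of all genes tested. Without αGlu 1, 5 were called higher, among them Jak2, Ifngr1, Il4ra and Hif1a, and Irf4 was called lower. Jak2, the kinase of the interferon gamma receptor, stood at 142, 213 and 216 CPM in Ctr and, in αGlu, at 207, 762 and 840 CPM. Irf4, a transcription factor of the IL-4 response, was lower in all 3 αGlu libraries than in any Ctr library: 30.3, 26.9 and 25.3 CPM in Ctr against 8.95, 2.05 and 1.54 CPM in αGlu. Its log2 fold change was -2.76 ± 0.68 (SE) with an adjusted p of 0.156 in edgeR, and -3.93 ± 0.16 with an adjusted p of 2.91e-05 without αGlu 1. Stat6, the factor that IL-4 and IL-13 activate, stood at 256 to 278 CPM in Ctr and 257 to 279 CPM in αGlu, with overlap. Irf1, an interferon-induced activator of Cd274, stood at 225, 277 and 315 CPM in Ctr and, in αGlu, at 393, 237 and 221 CPM, so that it was highest in αGlu 1. Spi1 (PU.1), the most abundant of the list, had a log2 fold change of -0.28 ± 0.11 (SE).

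A last pair of regulators acts on the proteins rather than the genes. Cmtm6, which keeps CD274 on the cell surface, stood at 103 to 104 CPM in Ctr against 91.7 to 107 CPM in αGlu. Marchf1, the ubiquitin ligase that removes CD86 from the surface, stood at 137, 139 and 153 CPM in Ctr and, in αGlu, at 149, 256 and 244 CPM. Its log2 fold change was 0.60 ± 0.21 (SE) with an adjusted p of 0.178 in edgeR, and 0.80 ± 0.09 with an adjusted p of 0.000874 without αGlu 1, short of the fold limit. Cd86 and Marchf1 were thus both highest in αGlu 2 and αGlu 3, at the level of transcripts.

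**Figure D5:**
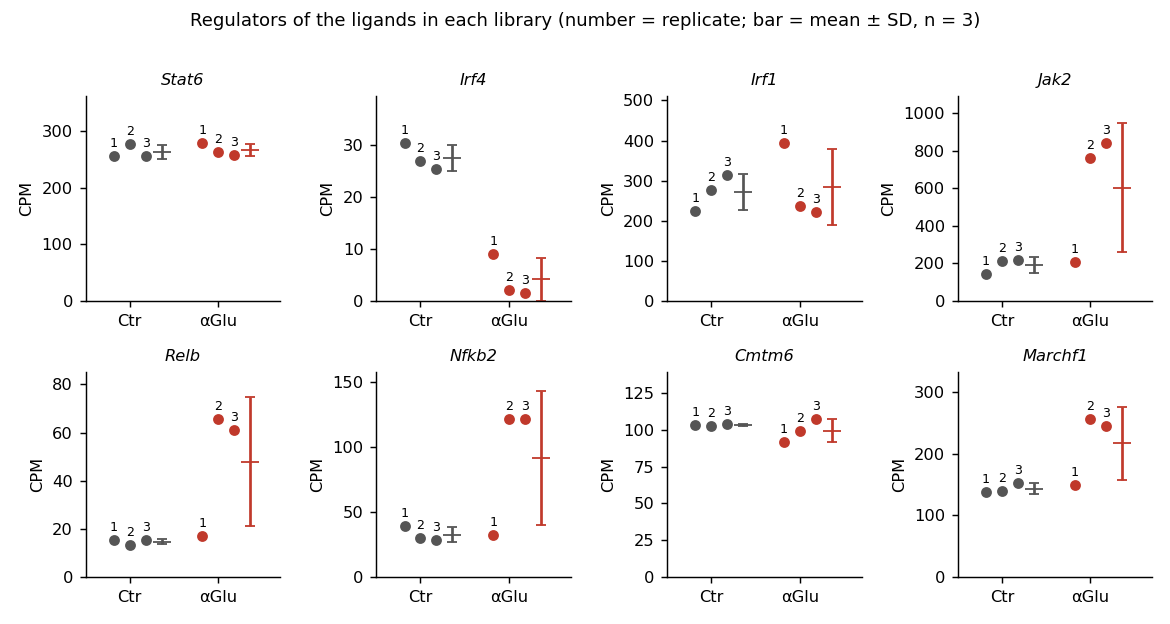
CPM of 8 regulators known for these ligands in each library, with points numbered by replicate and a bar for the mean ± SD of 3 libraries; every vertical axis starts at 0. Irf4 is lower in all 3 αGlu libraries, Jak2 and Nfkb2 are higher in αGlu 2 and αGlu 3 only, and Stat6 and Cmtm6 stay near their Ctr level.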

How the data were processed

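Total RNA of 6 cultures (3 Ctr, 3 αGlu) was made into stranded mRNA libraries and sequenced on an Illumina NovaSeq instrument. The authors deposited 1 table for all 41549 genes with read counts per gene, and deposited TPM values beside them; it was made with the QIAGEN RNA-seq Analysis Portal, with GRCm38 as the build per the labels. Aligner, annotation, strand setting and handling of multi-mapped reads are not given in the sources used here. The table's RPKM and CPM columns were not used. Gene coordinates were taken from GENCODE M21 (GRCm38).

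Samples were grouped by their labels. Counts were filtered (filterByExpr, minimum count 10, minimum total 15), scaled with TMM factors and fitted with the quasi-likelihood test of edgeR 4.0.16 (R 4.3.3), αGlu against Ctr, over all 11933 genes that passed, two-sided, with Benjamini-Hochberg adjustment; calls needed an adjusted p under 0.1 and a log2 fold change beyond 1 in either direction. Standard errors come from the F statistic. log2 CPM for likeness used a prior count of 2. Ratios of TPM were compared by an exact permutation test (pseudocount 0.1). DESeq2 1.42.0, limma-voom 3.58.1, edgeR's likelihood-ratio test, other scalings, filters and limits, a replicate block and each library left out were tried as alternatives. The scripts were tested on simulated data. Every pair of libraries differed by more than sampling noise. The labels do not name the animals. The study's methods give each replicate of primary cells as a separate animal's preparation, so p-values of the main fit measure the unpaired spread between such preparations. Whether the same preparation supplied both a Ctr and an αGlu library is not stated for these libraries.

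The members and lists were chosen with earlier results of these data known. Named genes were the 9 members, the 3 genes of each list with the highest mean TPM, receptors above 1 CPM, 8 regulators, the 2 nearest genes of each member whose log2 fold change was beyond 1, and markers of lists with a gene above 1 CPM; genes named for being called were added after their values were seen. One gene that this rule names is not reported here.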

Additional observations from a re-analysis of the deposited data

How the results depend on the processing

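Which members were called depended on αGlu 1 and on the test, and their directions mostly did not. DESeq2 called 1117 genes, 5 members and 24 genes of the pathway lists, and edgeR's likelihood-ratio test 899, 5 and 20, where the quasi-likelihood test called 0 of each. Leaving out 1 library at a time gave 0 to 2290 genes, 0 to 5 members and 0 to 35 pathway genes called, the highest each without αGlu 1 and 0 without any other library; the count of members without overlap ran from 3 to 7, with 6 without Ctr 3 and 7 without αGlu 1. With the replicate block, 17 genes and 1 member (Cd86, log2 fold change 2.45, edgeR adjusted p 0.0700) were called, and both ratios had an exact permutation p of 0.25, the smallest for 3 pairs. The numbers were not taken as pairs, since the labels do not say that they mark a shared experiment. Deviations of same-numbered libraries correlated at 0.08, 0.06 and 0.15. Each of these was above the other pairings of its libraries, which ran from -0.11 to 0.05. The paper used a paired test for the fragment's level in macrophages given these oligonucleotides. Whether these libraries are pairs was not settled, so the replicate block is given beside the main fit. Over the alternatives of the members' fold changes, 115 kept the direction and the call, though not always the side of the fold limit alone (Cd274 0.83 without Ctr 1 and 0.88 without αGlu 2, Icosl 0.77 without Ctr 2, Cd276 -1.46 without αGlu 2 and -1.07 without Ctr 3), 16 became called, and 1 reversed, Pdcd1lg2, which ran from -0.0300 without αGlu 3 to 0.24 without αGlu 1. Left-out libraries moved the Cd80 to Cd86 log2 difference between -1.39 and -0.95 and that of Cd274 to Pdcd1lg2 between 0.73 and 1.12. With no factor beyond library size, the median over all genes went to 0.10. With 2 to 17 reads a library, Icosl is limited by depth. The cause of αGlu 1's distance was not tested.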
